A study of Mus musculus with 20 samples.

Results

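The mouse Immunology panel held 6 genes for enzymes and receptors of lipid mediators, namely Ptgs2, Ptafr, Ltb4r1, Ltb4r2, Cmklr1 and Pparg. They were taken by name from its 547 endogenous probes, whether or not they rose above background, and all 6 were found. Their RNA was counted in left lungs of 20 male C57BL/6J mice that were 5 to 8 weeks old when obtained, spent 4 weeks on 1 of 2 chows built on the AIN-93G formula, and then received 50 µL through the nose. The DHA diet carried an oil of which 39.2% was docosahexaenoic acid (DHA), a long omega-3 fatty acid that gave about 1.4% of the calories, and the control diet carried high-oleic safflower oil and no DHA. The instilled fluid was saline or 12.5% hog dust extract (HDE), made from dust that settles in swine housing, and lungs were taken 5 h later. The groups are named by diet and fluid, and held 4 control-saline mice, 6 control-HDE mice, 3 DHA-saline mice and 7 DHA-HDE mice. The comparisons asked whether dust, diet or both together changed the RNA of these genes.

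Cells make lipid mediators on demand from fatty acids that phospholipases cut out of membranes. Cyclooxygenases turn arachidonic acid into prostaglandins and thromboxane, lipoxygenases turn it into leukotrienes, and DHA and eicosapentaenoic acid feed the same enzymes and give resolvins and related products. The products act on G protein-coupled receptors that draw leukocytes into the lung or quiet them, and some oxidised fatty acids also bind nuclear receptors. The members cover an enzyme (Ptgs2), a receptor for a phospholipid mediator (Ptafr), a pair of leukotriene B4 receptors (Ltb4r1 and Ltb4r2), a chemerin receptor that is also described as a resolvin E1 receptor (Cmklr1) and a fatty acid-sensing nuclear receptor (Pparg).

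Each lane of the nCounter cartridge counted the RNA of 1 mouse, and the lanes summed to 123536 to 684074 raw counts over the endogenous probes. A scaled count below is the raw count divided by the lane's factor (0.277 to 2.54), which is the geometric mean of the housekeeping genes Oaz1, Ppia, Eef1g and Rpl19 relative to the other lanes. Background in a lane was the mean plus 2 SD of its 8 negative probes, which lay between 16.6 and 40.9 raw counts. The column headers carry 2 run numbers with run dates in different years, and the 10 lanes under each number are called a cartridge here, although the headers do not use that word. Each held mice of all 4 groups. Signal of lung epithelium (Pigr and Muc1, 2748 to 10983 scaled counts together) was present in all mice. Control-HDE mouse 6 stood apart. Its 7 neutrophil markers summed to 1012 scaled counts, below every saline mouse (1606 to 5192), and values are given with and without it where it matters. In control-HDE mouse 3 the thymocyte markers summed to 17193 scaled counts, against 2476 at most in the others. Ptgs2, Ptafr and Cmklr1 passed the minimum mean of 82 scaled counts and were tested among 358 genes. Pparg, Ltb4r1 and Ltb4r2 had mean scaled counts of 72.7, 37.5 and 29.4, and under that minimum they entered only exact permutation tests. With the minimum lowered to 20, edgeR gave them log2 fold changes for HDE over the 20 mice of -0.22, 0.18 and 0.075. None of the 3 was called. Scaled counts are compared within a gene, not between genes, because each probe binds its own target.

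**Figure D1:**
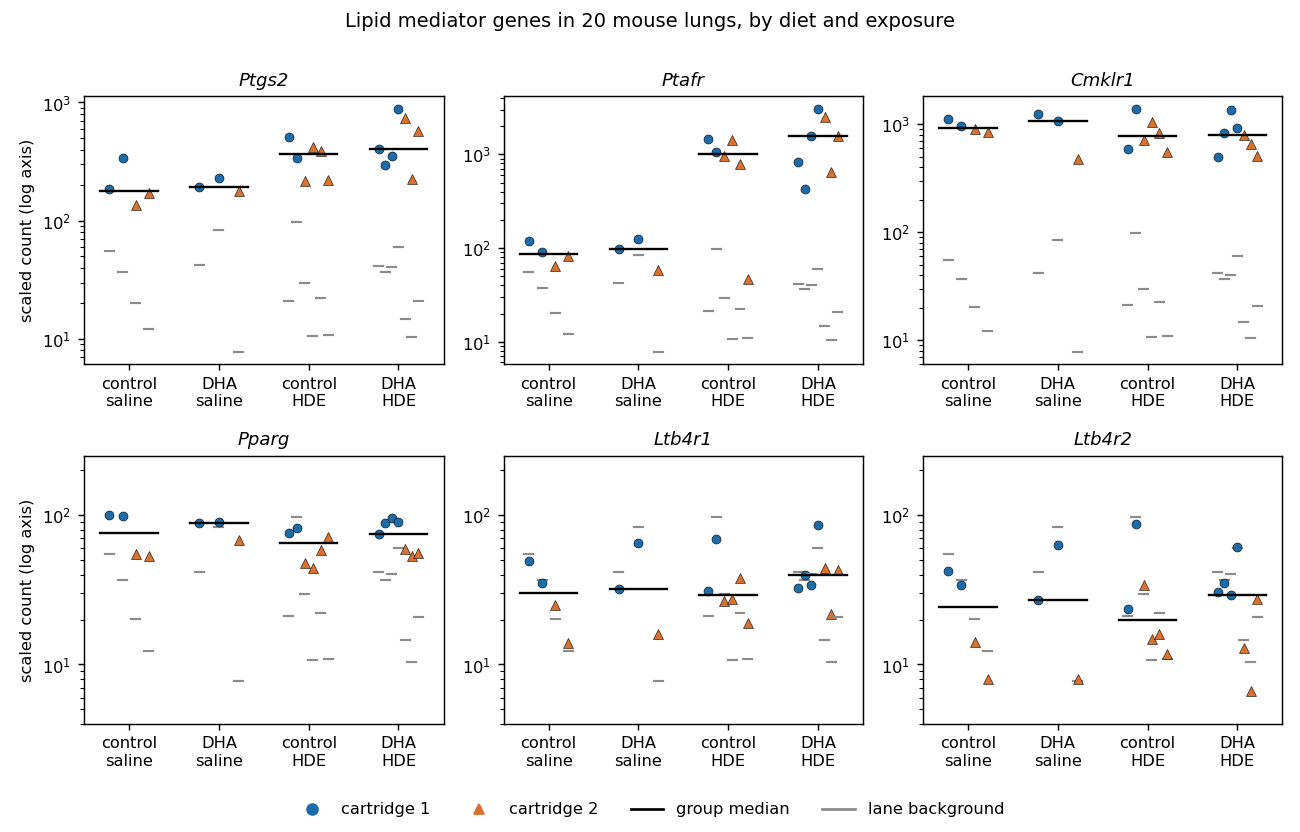
Scaled count (log axis) of each gene in each mouse by diet and exposure, with the cartridge as symbol, the group median as a black line and the background of each lane, divided by the same lane factor, as a short grey line. Ptafr exceeded all saline mice in 12 of 13 HDE mice, while Ltb4r1 and Ltb4r2 lay around their background lines.

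Ptgs2 encodes cyclooxygenase-2, the inducible enzyme that starts prostaglandin synthesis. The 4 control-saline mice had 186, 338, 136 and 173 scaled counts, and the 3 DHA-saline mice had 191, 228 and 180. With HDE the control diet mice ranged from 218 over a median of 366 to 506, and the DHA diet mice from 224 over a median of 407 to 889. In 9 of 13 HDE mice Ptgs2 exceeded all saline mice. The other 4 lay under the 338 scaled counts of control-saline mouse 2, and 3 of them (218, 221 and 224) also lay under the 228 of a DHA-saline mouse. By group mean the order was DHA-saline (200 ± 25.1, SD, n = 3), control-saline (208 ± 89.2, n = 4), control-HDE (350 ± 114, n = 6) and DHA-HDE (498 ± 247, n = 7). Neighbours in that order overlapped.

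Over the 20 mice, with diet in the model, Ptgs2 rose with HDE, with 2.10 times the mean of the saline mice (log2 fold change 1.00, SE 0.28, 95% interval 0.41 to 1.59, edgeR adjusted p = 0.00582). Ptgs2 was among the 152 of 358 genes (42.5%) called higher, and it ranked 113 by log2 fold change. In an exact permutation test within diets (two-sided, 25200 arrangements) the mean log2(scaled count + 1) differed by 0.95 (p = 0.00306). The log2 fold change was 0.98 on cartridge 1 (edgeR adjusted p = 0.0328) and 1.19 on cartridge 2 (edgeR adjusted p = 0.0913). On the DHA diet alone Ptgs2 rose by 1.32 on the log2 scale (SE 0.42, edgeR adjusted p = 0.0235), where 30.4% of genes were called higher, and 6 of 7 HDE mice lay above all 3 saline mice. That call was lost without DHA-saline mouse 1 (1.29, edgeR adjusted p = 0.0765) or DHA-saline mouse 3 (1.24, edgeR adjusted p = 0.110). It was also lost with TMM (0.63, edgeR adjusted p = 0.118) and with DESeq2's own size factors (0.67, adjusted p = 0.0904), and on cartridge 1 alone (edgeR adjusted p = 0.0780) and cartridge 2 alone (edgeR adjusted p = 0.286). The 109 genes called higher on that diet became 60 without DHA-saline mouse 1 and 46 without DHA-saline mouse 3. On the control diet the log2 fold change was 0.75 (SE 0.38, interval -0.04 to 1.53, edgeR adjusted p = 0.141), and 25.1% of genes (90) were called higher there. That number was 44, 57, 34 and 33 without control-saline mouse 1, 2, 3 or 4, 59 without control-HDE mouse 4 and 143 without control-HDE mouse 6. Without control-HDE mice 3 and 6 the log2 fold change of Ptgs2 on that diet was 1.00 (edgeR adjusted p = 0.0427). The interaction of diet and HDE was 0.57 (interval -0.56 to 1.70, edgeR adjusted p = 0.997), so a difference between the diets in the response was not shown. Each value is a level in whole lung, where more RNA per cell and more cells of a type that makes it cannot be told apart.

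Ptafr encodes the receptor for platelet-activating factor, a phospholipid that activates neutrophils, macrophages and platelets. After saline it was low, at 120, 90.0, 64.4 and 82.5 scaled counts on the control diet and at 96.9, 125 and 58.1 on the DHA diet. With HDE it ranged from 47.2 over a median of 1012 to 1451 on the control diet and from 429 over a median of 1580 to 3081 on the DHA diet. All 7 HDE mice of the DHA diet lay above its 3 saline mice, as in 94 of 358 genes (26.3%). On the control diet 5 of 6 did, and mouse 6 lay below every saline mouse. In all, 12 of 13 HDE mice exceeded every saline mouse, and 74 of 358 genes (20.7%) had at least 12 that did. The means ran from control-saline (89.3 ± 23.3, SD, n = 4) and DHA-saline (93.4 ± 33.7, n = 3) to control-HDE (955 ± 516, n = 6) and DHA-HDE (1518 ± 983, n = 7), and only the DHA-HDE mice were free of overlap with both saline groups.

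Ptafr rose with HDE over the 20 mice to 13.8 times the mean of the saline mice (log2 fold change 3.70, SE 0.53, interval 2.60 to 4.79, edgeR adjusted p = 1.64e-05) and ranked 13 of 358 genes. The exact permutation difference was 3.31 (p = 1.98e-04, 25200 arrangements), and without control-HDE mouse 6 it was 3.71 (p = 6.61e-05, 15120 arrangements). Within the control diet the log2 fold change was 3.42 (SE 0.70, edgeR adjusted p = 0.00221) and within the DHA diet 4.03 (SE 0.81, edgeR adjusted p = 0.00255), and the interaction was 0.61 (interval -1.25 to 2.47, edgeR adjusted p = 0.997). The rise was 3.67 on cartridge 1 (edgeR adjusted p = 9.06e-05) and 3.86 on cartridge 2 (edgeR adjusted p = 0.0436). With background subtracted the log2 fold change was 4.40.

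**Figure D2:**
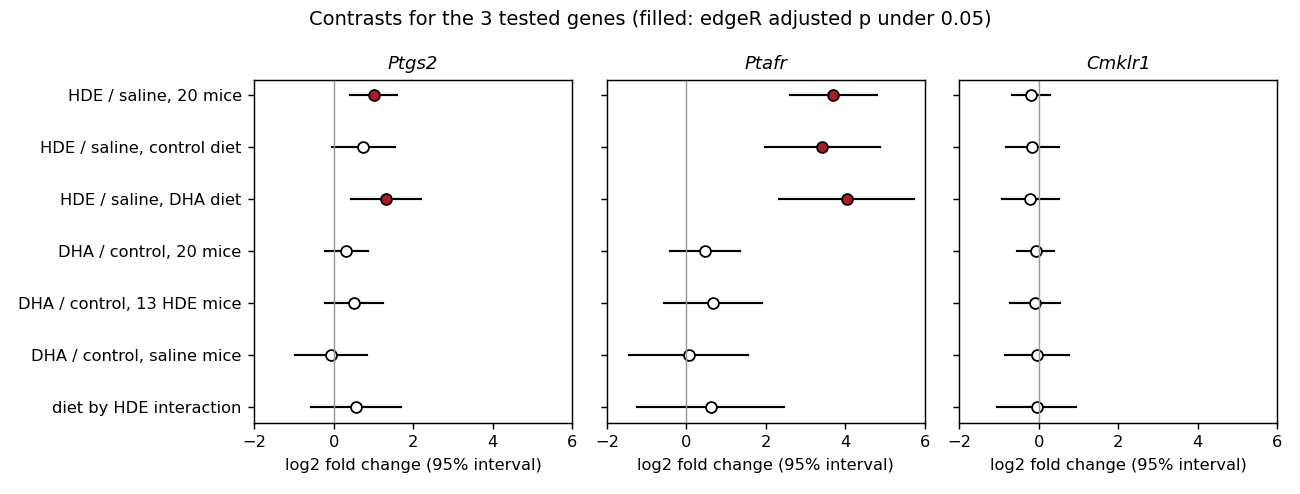
Log2 fold change (x axis) with its 95% interval for the 3 tested genes in each comparison, filled where the edgeR adjusted p was under 0.05. Ptafr passed in the 3 HDE comparisons, Ptgs2 in 2 of them and Cmklr1 in none, and the 3 diet comparisons and the interaction were open for every gene.

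Markers of neutrophils, which carry the platelet-activating factor receptor, followed Ptafr in some mice and not in others. All 7 neutrophil markers on the panel were higher with HDE, beside 42.5% of all tested genes. On cartridge 2 alone 1 of 7 was, beside 40 of 342 genes. The summed scaled counts of the 7 markers were 2164 to 5192 in control-saline mice, 1606 to 2276 in DHA-saline mice, 1012 to 34848 in control-HDE mice and 5748 to 63388 in DHA-HDE mice. Every one of these markers was above background in at least 1 lane. Control-HDE mouse 6 had both the lowest Ptafr and the lowest marker sum of the 20 mice. The 2 DHA diet mice with the highest Ptafr (3081 and 2475 scaled counts) also had the highest Ptgs2 (889 and 744), beside marker sums of 35739 and 63388. Other HDE mice did not keep that order. Control-HDE mouse 5 had a marker sum of 34848 with 782 Ptafr counts, and control-HDE mouse 2 a sum of 6983 with 1064 Ptafr counts. Of the 2 alveolar macrophage markers on the panel, 1 was higher, and their sums were 330 to 651, 391 to 595, 331 to 1046 and 707 to 2341 in the same order of groups. None of the 3 monocyte markers was called, but 2 were lower with TMM, where 94 of 358 genes were lower. Of the other lists, 1 of 2 epithelial and 1 of 4 endothelial markers were higher. For B cells 2 of 4 markers were lower, beside 5.03% of all tested genes. None of 6 thymocyte markers and none of 1 eosinophil or mast cell marker was called. With TMM and with DESeq2's own size factors 3 of 4 endothelial and 4 of 4 B cell markers were lower, beside 94 of 358 genes in each. With background subtracted 3 of 5 thymocyte markers were higher, beside 150 of 308 genes. The part of these cells in the rise of Ptgs2 and Ptafr was not tested.

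**Figure D3:**
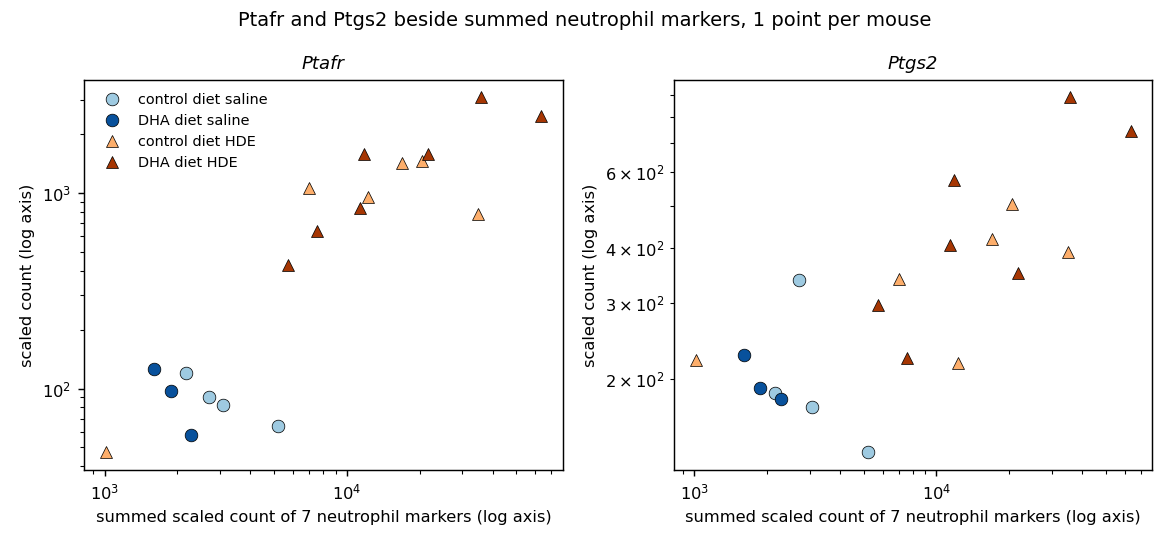
Scaled count of Ptafr (left) and Ptgs2 (right) against the summed scaled count of 7 neutrophil markers, 1 point per mouse, both axes log. The other 12 HDE mice lie to the upper right of the saline mice for Ptafr, and control-HDE mouse 6 lies at the lower left with 1012 marker counts and 47.2 Ptafr counts.

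The promoter windows of Ptgs2 and Ptafr are shown as the regulatory sequence next to the genes that the HDE comparison called. Each holds 250 bases before and 50 after the annotated start in RefSeq on GRCm38.p6, written 5′ to 3′ on the gene's strand, with a motif match in capitals. The 6 motifs were searched on both strands in 32851 promoter windows of this length. They were GGGNNTTCC for NF-kappaB (in 5.82% of windows), TGANTCA for AP-1 (7.81%), TGACG for the core of the cyclic AMP response element (20.8%), TTNNGNAAT for C/EBP (11.5%), AGGTCA for a nuclear receptor half-site (16.3%) and TATAAA for a TATA box (13.6%).
Ptgs2 (chr1:150099781-150100080, plus strand): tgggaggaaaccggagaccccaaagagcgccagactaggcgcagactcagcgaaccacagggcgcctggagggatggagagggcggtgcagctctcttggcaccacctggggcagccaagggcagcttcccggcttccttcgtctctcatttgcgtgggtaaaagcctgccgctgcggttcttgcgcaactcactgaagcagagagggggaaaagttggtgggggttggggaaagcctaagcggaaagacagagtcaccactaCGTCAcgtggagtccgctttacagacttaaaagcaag
Ptafr (chr4:132563817-132564116, plus strand): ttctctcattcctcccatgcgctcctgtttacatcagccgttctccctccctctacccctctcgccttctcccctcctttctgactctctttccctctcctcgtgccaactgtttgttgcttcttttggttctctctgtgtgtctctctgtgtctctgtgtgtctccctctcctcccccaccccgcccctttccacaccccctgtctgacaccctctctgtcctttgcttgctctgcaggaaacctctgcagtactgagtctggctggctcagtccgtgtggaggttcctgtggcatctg
The Ptgs2 window held 1 match, the cyclic AMP response element core on the minus strand. It starts at base 14 counted from the annotated start, and with another start that position would differ. The Ptafr window held no match. No match was found in the windows of Ltb4r1 and Cmklr1 either. Of the 3 windows of Pparg, 2 held the half-site AGGTCA, 28 and 9 bases before the start. The latter also held the letters TATAAA on the minus strand, opposite to the gene, and the other window held no match. A match describes letters and not a bound site. Variants of a motif with other letters or another length were not searched, so no match does not mean no site.

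Cmklr1 encodes a receptor for the chemoattractant protein chemerin and is found on macrophages, dendritic cells and natural killer cells. The saline mice had 1117, 953, 895 and 851 scaled counts on the control diet and 1240, 1062 and 473 on the DHA diet. With HDE they ranged from 555 over a median of 769 to 1391 and from 495 over a median of 793 to 1347. All groups overlapped, and the DHA diet saline mouse with 473 was the lowest of the 20. The means fell in the order control-saline (954 ± 116, SD, n = 4), DHA-saline (925 ± 401, n = 3), control-HDE (853 ± 319, n = 6) and DHA-HDE (793 ± 293, n = 7), with no neighbours beyond their spread.

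Cmklr1 was not called over the 20 mice, with a log2 fold change of -0.19 (SE 0.23, interval -0.66 to 0.29, edgeR adjusted p = 0.532), beside 18 of 358 genes (5.03%) called lower. That result depended on the scaling. The median log2 fold change of the tested genes was 0.47 after housekeeping scaling and -0.03 after TMM, which assumes that most genes do not change, and the calls went from 152 higher and 18 lower to 106 higher and 94 lower. With TMM Cmklr1 was called lower (-0.68, edgeR adjusted p = 0.00217), as with DESeq2's own size factors (-0.67, adjusted p = 5.59e-04, 112 genes higher and 94 lower). Both scalings also called it lower on the DHA diet alone (-0.79, edgeR adjusted p = 0.0179, and -0.75, DESeq2 adjusted p = 0.0164), where it was -0.22 after housekeeping scaling (edgeR adjusted p = 0.704). Over the 20 mice Ptgs2 was 0.48 with TMM and missed the threshold (edgeR adjusted p = 0.0634). With DESeq2's own size factors Ptgs2 was 0.49 (adjusted p = 0.0490). Set against the median gene, Cmklr1 lay at -0.66 after housekeeping scaling and -0.65 after TMM, Ptgs2 at 0.53 and 0.51, and Ptafr at 3.23 and 3.12. Ptafr was called higher under every scaling tried.

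**Figure D4:**
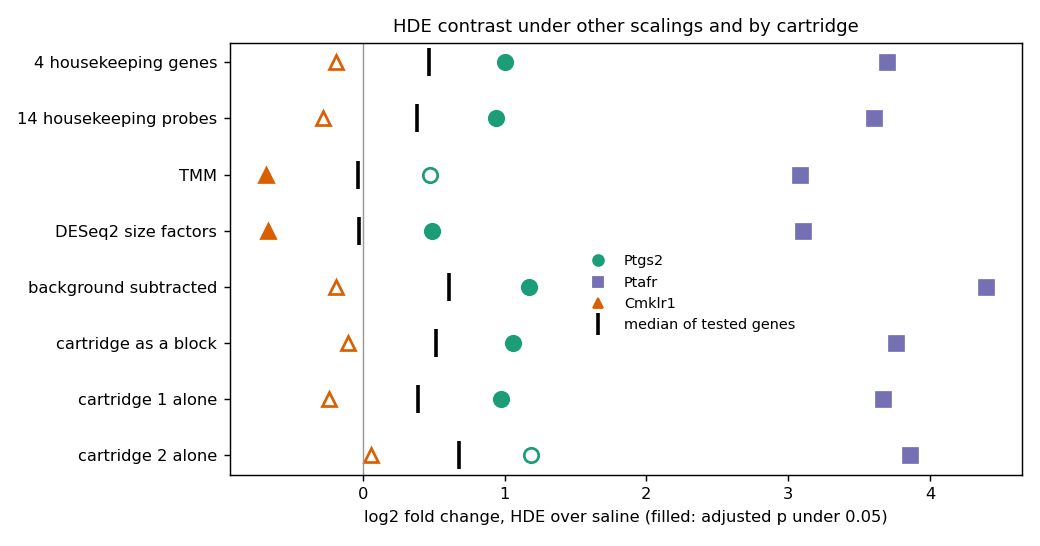
Log2 fold change of HDE over saline for Ptgs2, Ptafr and Cmklr1 under each scaling, background or cartridge setting, filled where the adjusted p was under 0.05, with the median of all tested genes as a vertical bar. Between scalings the genes and the bar shift together, but with background subtracted the bar moves from 0.47 to 0.61 while Cmklr1 stays at -0.19. Cmklr1 is called lower where the bar lies near 0 (TMM and DESeq2 size factors) and not elsewhere.

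Ltb4r1 and Ltb4r2 encode the high-affinity and the low-affinity receptor for leukotriene B4, a strong neutrophil attractant, and they are direct neighbours in the genome, with 0 annotated genes between them. Ltb4r1 gave 20 to 65 raw counts per lane and was above background in 12 of 20 lanes, 3 of 10 on cartridge 1 and 9 of 10 on cartridge 2. Its lowest, median and highest scaled counts were 13.9, 31.9 and 65.7 in the 7 saline mice and 18.9, 34.3 and 86.7 in the 13 HDE mice. The groups overlapped throughout, and the exact permutation difference was 0.24 on the log2 scale (p = 0.449). Ltb4r2 gave 15 to 33 raw counts in every lane while the lane factor went from 0.277 to 2.54, and was above background in 7 of 20 lanes. Its scaled counts were 7.95, 27.0 and 63.7 at the lowest, median and highest in saline mice and 6.66, 27.4 and 87.8 in HDE mice, a difference of 0.13 (exact permutation p = 0.792). Neither difference exceeded the spread between mice.

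Pparg encodes a nuclear receptor that binds fatty acids and their oxidised products, shapes alveolar macrophages and dampens inflammatory genes. It was above background in 19 of 20 lanes, with 101, 98.3, 54.9 and 53.2 scaled counts in control-saline mice and 88.3, 90.3 and 68.4 in DHA-saline mice. With HDE it ranged from 44.3 over a median of 65.1 to 82.5 on the control diet and from 53.3 over a median of 74.6 to 96.1 on the DHA diet. The HDE and saline mice overlapped on both diets. The exposure difference (-0.21, exact permutation p = 0.236, and -0.13 within cartridges, p = 0.148) did not exceed the spread between mice. Neither did the diet difference (0.20, exact permutation p = 0.248), which was 0.065 within cartridges (exact permutation p = 0.441).

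The spread of Pparg followed the cartridge. All 10 mice of cartridge 1 had 74.6 to 101 scaled counts (mean 88.6 ± 8.77, SD) and all 10 of cartridge 2 had 44.3 to 71.9 (56.8 ± 8.38), so that the cartridges did not overlap. Of the 547 endogenous probes, 14 (2.56%) separated the cartridges this way. The difference within groups was -0.62 on the log2 scale (exact permutation p = 1.06e-04, 9450 arrangements, the smallest they can give), with the same p on the linear scale. The negative probes differed as well, with lane means of 12.1 to 28.4 raw counts on cartridge 1 and 9.50 to 16.5 on cartridge 2. With the lane's negative mean subtracted before scaling, Pparg was 53.3 ± 20.4 on cartridge 1 and 47.1 ± 10.9 on cartridge 2, and the ranges overlapped (difference within groups -4.01 scaled counts, exact permutation p = 0.602). Ltb4r1 had 47.6 ± 19.6 and 27.5 ± 10.8 scaled counts on the 2 cartridges before subtraction (exact permutation p = 0.00995 on the log2 scale and 0.0187 on the linear scale) and 12.2 ± 12.6 and 17.8 ± 9.89 after it (linear scale, exact permutation p = 0.197). Ltb4r2 had 43.4 ± 20.8 and 15.4 ± 8.86 before subtraction (exact permutation p = 5.29e-04 on both scales) and 8.08 ± 5.65 and 5.74 ± 5.87 after it (linear scale, exact permutation p = 0.257). The cartridge difference of these 3 genes passed a p of 0.05 on the linear scale before subtraction and missed it on that scale after. Cmklr1, far above background, had 994 ± 300 and 732 ± 185 before subtraction (exact permutation p = 0.0517 on the log2 scale and 0.0344 on the linear scale) and 959 ± 291 and 722 ± 185 after it (linear scale, exact permutation p = 0.0488).

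**Figure D5:**
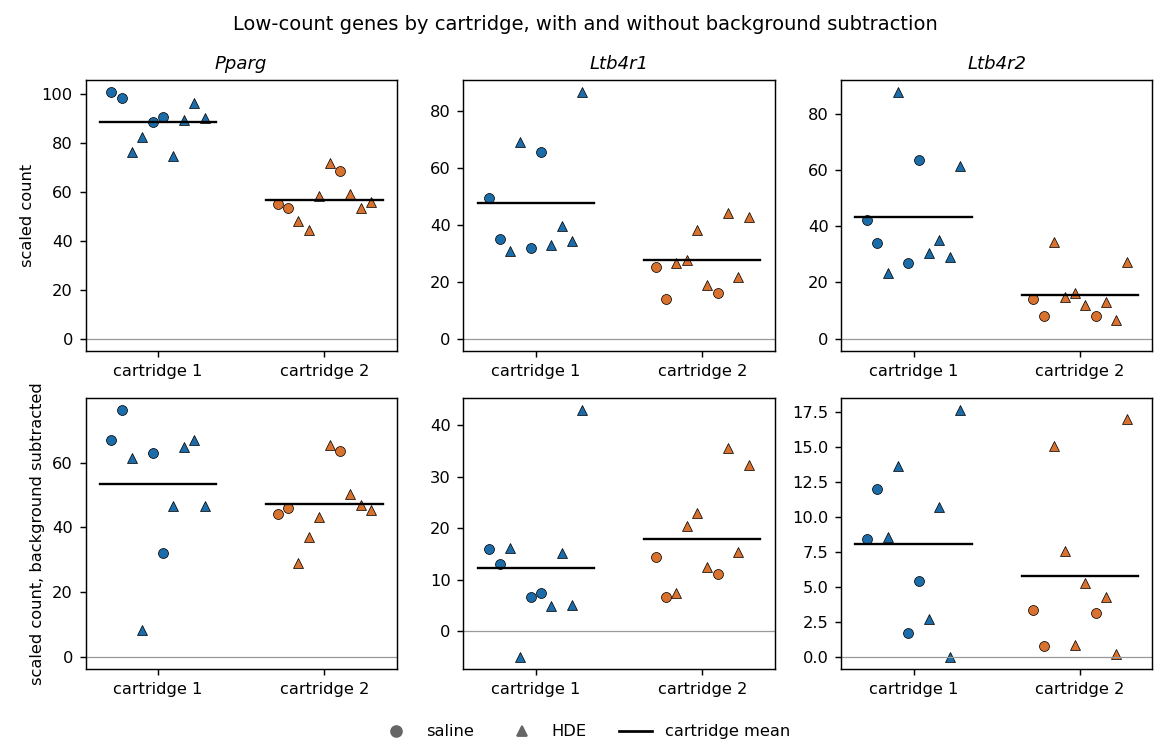
Scaled count of Pparg, Ltb4r1 and Ltb4r2 in each mouse by cartridge, as counted (top) and with the mean of the lane's negative probes subtracted (bottom), with circles for saline, triangles for HDE and the cartridge mean as a line. The 10 mice of each cartridge separate fully for Pparg in the top row and overlap in the bottom row.

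For diet, none of the 3 tested members was called, as none of 358 genes was over the 20 mice (0%) and none of 363 over the 13 HDE mice (0%), at an edgeR adjusted p under 0.05. After saline alone and for the interaction the count was also 0 of 358. At an unadjusted p of at most 0.05 edgeR had 14, 18, 1 and 9 genes in these 4 comparisons, with no member among them. DESeq2 with housekeeping size factors called 0, 3, 0 and 0 genes, none of them a member, and limma 0 in each. With background subtracted edgeR called 1 of 308 genes lower over the 20 mice, and it was not a member. In the 13 HDE mice Ptafr was 1.59-fold higher on the DHA diet (log2 fold change 0.67, interval -0.57 to 1.91, edgeR adjusted p = 0.981) and Ptgs2 1.42-fold higher (0.51, interval -0.23 to 1.24, edgeR adjusted p = 0.981), while Cmklr1 was at -0.11 (interval -0.74 to 0.52, edgeR adjusted p = 0.995). These intervals include no change and also rises of over 1 on the log2 scale for Ptafr and Ptgs2. The diet difference of Ptafr depended on single mice and differed between the cartridges. In the 13 HDE mice it was 0.67 on the log2 scale, 0.41 without control-HDE mouse 6 and 0.40 without DHA-HDE mouse 4. It was 0.23 in the HDE mice of cartridge 1 and 0.96 in those of cartridge 2. For Ptgs2 these were 0.18 and 0.72. Over the 20 mice, with exposure in the model, the edgeR value of Ptafr was 0.47. Without control-HDE mouse 6 it was 0.29, and without DHA-HDE mouse 4 it was 0.28. Over both exposures the exact permutation difference was 0.61 (p = 0.325), and 0.11 without control-HDE mouse 6 (p = 0.739). Among saline mice Ptgs2, Ptafr and Cmklr1 differed between diets by -0.06, 0.06 and -0.05 on the log2 scale (intervals -0.98 to 0.85, -1.45 to 1.56 and -0.85 to 0.75). For Ltb4r1 and Ltb4r2 the diet differences were 0.26 (exact permutation p = 0.397) and 0.08 (exact permutation p = 0.860). Within cartridges they were 0.10 (exact permutation p = 0.666) and -0.24 (exact permutation p = 0.437).

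Other genes of the pathway were few on the panel. Of 48 listed enzymes, receptors and ligands of lipid mediators beyond the members, 4 had probes, and 1 passed the count minimum. Ccrl2, a receptor that binds chemerin and presents it to Cmklr1-bearing cells, rose with HDE by 1.49 on the log2 scale (SE 0.37, edgeR adjusted p = 0.00209). Its means were 181 ± 38.4 and 160 ± 29.3 scaled counts after saline and 451 ± 235 and 523 ± 362 after HDE, on the control and the DHA diet. With TMM its rise was 0.86 (edgeR adjusted p = 0.00766), and on cartridge 2 alone it was 1.53 and missed the threshold (edgeR adjusted p = 0.127). Ptger4, a prostaglandin E2 receptor, had means of 43.6, 45.3, 86.1 and 105 scaled counts in the same order and was above background in 17 of 20 lanes, but fell under the minimum over 20 mice. With the minimum lowered to 20 it was higher with HDE (1.09, edgeR adjusted p = 0.0106), as on cartridge 1 alone (0.87, edgeR adjusted p = 0.0395). The secreted phospholipases Pla2g2a and Pla2g2e were above background in 0 and 3 lanes.

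Of 23 genes listed around Pparg (partners, targets, and Csf2 with its receptor chains), 4 were on the panel. With HDE 3 of them rose and 1 fell, beside 42.5% of all tested genes higher and 5.03% lower. With only 4 genes, which did not move one way, their median log2 fold change was 1.47 beside 0.47 over all tested genes. Csf2 and Csf2rb had the highest values of the 4, so that median does not describe targets of Pparg. Cd36, a fatty acid transporter and known Pparg target, fell by 0.76 on the log2 scale (SE 0.22, edgeR adjusted p = 0.00720), with means of 6769 and 5990 scaled counts after saline and 4032 and 3524 after HDE on the control and the DHA diet. The genes that rose were Csf2 (2.79, edgeR adjusted p = 1.39e-05), the growth factor that drives alveolar macrophages, its receptor chain Csf2rb (1.99, edgeR adjusted p = 7.22e-05) and the transcription factor Cebpb (0.95, edgeR adjusted p = 0.0233). With TMM Cd36 was at -1.26 (edgeR adjusted p = 2.38e-04), and Cebpb at 0.45 was no longer called (edgeR adjusted p = 0.0913). On cartridge 2 alone Cd36 was at -0.75 and missed the threshold (edgeR adjusted p = 0.193). None of the 4 was called for diet.

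Likeness between genes was described by Pearson's r of deviations from the 4 group means of log2(scaled count + 1) over the 20 mice, which share lanes and cartridges. The genes most like Ptafr were Cd274, an immune checkpoint ligand (0.97), the cytokine gene Il1b (0.97) and Nfkbia, an inhibitor of NF-kappaB (0.96), against a median of 0.59 over all tested genes. Without control-HDE mouse 6 these values were 0.92, 0.89 and 0.92. Ptgs2 lay closest to Nfil3 (0.81), Tlr2 (0.81) and Plaur (0.79) against a median of 0.40, and its r with Ptafr was 0.64. Without that mouse these 4 values were 0.85, 0.89, 0.81 and 0.75. Cmklr1 lay closest to Cd81 (0.87), Il6ra (0.86) and Chuk (0.85) against a median of 0.45, and to Ptafr and Ptgs2 it had an r of 0.41 and 0.13. Without control-HDE mouse 6 these were 0.87, 0.87, 0.84, 0.31 and 0.0476.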

How the data were processed

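Left lung RNA was hybridised to the NanoString mouse Immunology panel and read on an nCounter Sprint profiler. The authors deposited raw counts per probe and lane, with no background subtracted, and normalized values from nSolver. The deposited normalized signal equalled the scaled count used here times 1.18 (largest relative deviation 9.43e-05 at raw counts of at least 100). No count column was left out. Groups came from the sample labels, and each mouse is a replicate. The sources used here do not name the experimental set of a mouse. All 190 lane pairs differed by more than counting noise (lowest chi-square per degree of freedom 7.70).

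Lanes were scaled with the 4 housekeeping genes. In 7 comparisons edgeR's quasi-likelihood test was run on all genes whose scaled counts averaged 82 or more, with Benjamini-Hochberg adjustment over all tested genes (R 4.3.3, edgeR 4.0.16, limma 3.58.1, DESeq2 1.42.0). The scale was set over all 20 mice, so 363 genes passed in the 13 HDE mice. The contrasts over 20 mice used a model of diet plus exposure, those over 13 mice a model of diet, and the rest a 4-group model. The exact permutation tests of single genes were two-sided, with the other factor or the 4 groups as strata, and were not adjusted over genes. The code was tested on simulated data. Alternatives were TMM, all 14 housekeeping probes, DESeq2, limma on the deposited values, other count minimums, background subtraction, cartridge as a block, each cartridge alone and each mouse left out. Cartridge differences on the linear scale, with and without background subtraction, and permutation without control-HDE mouse 6 were added after seeing the data.

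The members, the 2 gene lists, the marker lists and the motifs were chosen with earlier results of these data known. Named genes were the members, the genes of the 2 lists on the panel and the 3 tested genes most correlated with each tested member. Promoters came from RefSeq tables, which held 7 windows of 5 members. Of the 547 probe names, 531 equalled a reference symbol. The 95% intervals are from the edgeR fit.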

Additional observations from a re-analysis of the deposited data

Results flagged for a closer look

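Ptafr in control-HDE mouse 6 (47.2 scaled counts) lay apart from the other 5 mice of its group. The gap to the nearest of them took 0.819 of the whole range of the group on the log2 scale, past Dixon's limit for 6 values. Of 18 groups of member values tested this way 1 was flagged, and chance flags about 1 in 20.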

How the results depend on the processing

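Of 224 counts of members called under other settings, 214 stayed within 1.5 times the reported count and 10 moved. Over the 20 mice 2 members were called for HDE. With 82 scaled counts required in every mouse it was 1 (Ptgs2, as Ptafr fell out of the test), and on cartridge 2 alone 1 (Ptafr). TMM kept 2 calls, Ptafr and Cmklr1. On the control diet the count of 1 became 0 with 82 counts in every mouse, and 2 without control-HDE mice 3 and 6. It was also 0 on cartridge 2 alone, where 0 of 342 genes were called on that diet. On the DHA diet the count of 2 became 1 with 82 counts in every mouse. It was 1 on cartridge 1 alone, beside 94 of 365 genes called higher. On cartridge 2 that diet had 1 saline mouse, so its count there does not speak to the members. The DHA diet count stayed at 2 with TMM and DESeq2's own size factors, but with Cmklr1 in place of Ptgs2. With each mouse left out it ranged from 1 to 2.

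Of 665 alternative log2 fold changes 29 changed sign, all of values that were not called. For Cmklr1 and HDE these were 0.0554 on cartridge 2, 0.0149 on the control diet without control-HDE mice 3 and 6, and 0.46 on the DHA diet on cartridge 2, with -0.54 to 0.0493 when each mouse was left out. For Cmklr1 and diet, leaving out each mouse gave -0.20 to 0.0381 over 20 mice, -0.28 to 0.0877 over 13 and -0.32 to 0.27 after saline (0.15 on cartridge 1). Its interaction was 0.0456 with limma, 0.62 on cartridge 2 and -0.38 to 0.21 with each mouse left out. For Ptgs2 the diet value was -0.0402 on cartridge 1. After saline it was 0.0176 with limma, 0.22 on cartridge 2 and -0.22 to 0.27 with each mouse left out. For Ptafr after saline the diet value was -0.0253 with all 14 housekeeping probes, -0.23 after background subtraction, -0.0257 with cartridge as a block, -0.34 on cartridge 2 and -0.21 to 0.32 with each mouse left out. For Ltb4r2 the diet difference turned to -0.24 within cartridges, -1.60 scaled counts after subtraction of the negative mean and -0.0347 without control-HDE mouse 6. The cartridge difference of Ltb4r1 turned to 6.51 scaled counts after that subtraction. The cause of these turns was not tested. Settings with control-HDE mouse 6 left out of the permutation, or cartridge differences on the linear scale or with the negative mean subtracted, were chosen after seeing the data.

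No paired analysis was possible because replicate numbers were given in accession order. Counts near the negative probes limit Ltb4r1 and Ltb4r2, and the 3 DHA-saline mice limit each diet comparison after saline.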
